A study of Mus musculus with 2 samples.

Results

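The genes described here are 39 mouse genes that type I interferon induces and whose products act in antiviral defence, taken as a list of symbols and matched to the probe annotation of the array. Of the 39, 36 had a probe (50 probes in all), and 27 had a probe detected on at least 1 array, at a detection p-value under 0.01 (35 probes). The whole table holds 25697 probes for 16593 named genes, of which 8651 genes were detected by the same rule. The study profiled total RNA of mouse cell cultures by Illumina bead arrays of 1 colour. There was 1 array of cells on gold nanoparticles (AuNPs) under an electromagnetic field (EMF) and 1 array of control cells. Both groups are labelled fibroblast, and the sources used here give no strain, age, passage, dose or exposure time. The field and the particles were given together, so their separate effects cannot be told apart, and with 1 array a condition neither can the exposure and any difference between 2 cultures. Across all probes the median intensity was 162 with EMF and AuNPs and 165 in control. No value carries a replicate error, no test between conditions was possible, and having so few arrays limits what the values can show.

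Type I interferons are secreted proteins that bind a receptor made of IFNAR1 and IFNAR2. The receptor's kinases JAK1 and TYK2 activate transcription factors that bind the interferon-stimulated response element in the promoters of target genes. The targets include sensors of viral nucleic acid, enzymes that stop viral RNA from being made or translated, and the ubiquitin-like protein ISG15. Fibroblasts both secrete interferon beta and respond to it, and many of these genes are expressed at a basal level without infection.

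Most detected members were higher with EMF and AuNPs than in control, most of them by less than 1.5-fold. Differences are given as log2 values, EMF and AuNPs minus control, after background correction and quantile normalization. Siglec1, Usp18, Rsad2 and Ifi27l2a were at least 2-fold higher (log2 differences of 1.40, 1.23, 1.10 and 1.09), and Cmpk2, Dhx58, Ifit3 and Isg15 were between 1.5-fold and 2-fold higher, as was Mx2 by a lower bound. These 4 of 27 members past 2-fold stand beside 0.52% of all detected genes, and the 9 past 1.5-fold beside 3.34%. On its brightest detected probe, no member was lower by 1.5-fold, a limit that 2.91% of all detected genes passed downwards, or by 2-fold, which 0.485% passed. Dimmer probes of Ifit3 (-0.89) and of Tor3a (-0.65, detected in control alone) were lower by more than 1.5-fold. The median difference was 0.33 over the 27 genes and 0.03 over all 8651, and 24 members lay above 0, as did 55.8% of all detected genes. For the 25 members measured on both arrays, 22 lay above 0, 8 passed 1.5-fold and the median was again 0.33. Without background correction Rsad2 (0.85) lay under 2-fold, and Isg15 (0.58) and Mx2 (a bound of 0.31) lay under 1.5-fold.

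**Figure D1:**
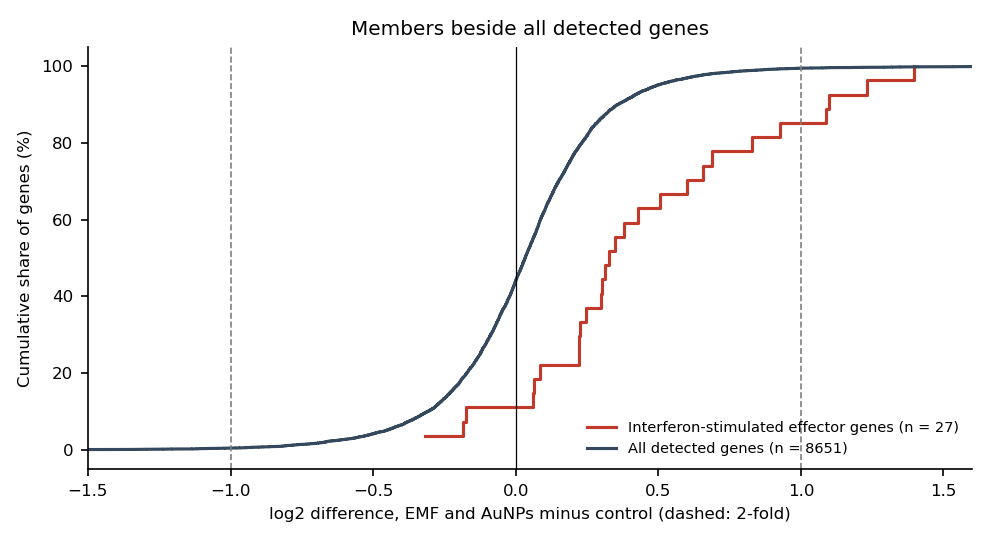
Cumulative share of genes (%) against the log2 difference, EMF and AuNPs minus control, for the 27 detected interferon-stimulated effector genes (red) and all 8651 detected genes (blue); dashed lines mark 2-fold. The red curve lies to the right, with medians of 0.33 and 0.03, and 4 members stand past the upper dashed line and 0 past the lower one; the horizontal axis leaves out the most extreme genes.

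As a yardstick for noise, a robust SD was computed from the differences of genes measured on both arrays, in bins of similar signal. It was 0.14 (log2) in the brightest bin, 0.31 in the dimmest and larger in a dim bin above that, at 0.38 for Slfn2. In the dimmest bin, requiring detection on both arrays narrows it (0.65 over genes detected on either array). Real changes widen it too. By this measure 11 members exceeded 2 robust SDs upwards, against 4.09% of all detected genes (also 11 with the spread over genes detected on either array), and 0 exceeded them downwards, against 4.18%. Another 10 members lay within 1 robust SD, and the share of all detected genes within that limit was not computed. Of the 100 genes with the highest differences on the array, 6 were members (Siglec1, Usp18, Rsad2, Ifi27l2a, Cmpk2 and Dhx58), and of the 100 with the lowest, 0 were.

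Promoters of 5 members are shown because they carry the response element that the pathway acts through, in genes that were higher (Isg15, Rsad2), slightly lower (Ddx58), of a direction that differed between probes (Ifit3) and not detected (Ifit1). Each runs from 250 bases before to 50 bases after the RefSeq start (GRCm38.p6), and capitals mark matches to the core of the element, GAAA followed by any 2 bases and GAAA again, on either strand.
Isg15 (chr4:156200769-156201068, strand -): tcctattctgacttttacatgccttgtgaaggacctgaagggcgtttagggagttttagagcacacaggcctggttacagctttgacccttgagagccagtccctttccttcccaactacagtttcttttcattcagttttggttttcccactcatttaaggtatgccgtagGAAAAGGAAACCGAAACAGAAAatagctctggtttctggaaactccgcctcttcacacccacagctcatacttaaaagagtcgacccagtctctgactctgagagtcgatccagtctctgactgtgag
Rsad2 (chr12:26456403-26456702, strand -): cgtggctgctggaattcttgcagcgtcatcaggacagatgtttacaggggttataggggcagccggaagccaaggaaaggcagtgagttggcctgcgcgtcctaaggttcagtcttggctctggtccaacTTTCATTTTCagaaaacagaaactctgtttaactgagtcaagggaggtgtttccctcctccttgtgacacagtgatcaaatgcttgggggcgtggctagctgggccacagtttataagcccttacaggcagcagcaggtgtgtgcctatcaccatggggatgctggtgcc
Ifit3 (chr19:34583279-34583578, strand +): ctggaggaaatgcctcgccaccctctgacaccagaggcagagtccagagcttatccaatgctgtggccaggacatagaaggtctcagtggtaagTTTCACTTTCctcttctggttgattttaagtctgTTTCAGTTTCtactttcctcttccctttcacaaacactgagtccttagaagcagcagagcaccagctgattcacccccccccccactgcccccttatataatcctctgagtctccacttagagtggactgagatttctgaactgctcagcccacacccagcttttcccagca
Ddx58 (chr4:40239776-40240075, strand -): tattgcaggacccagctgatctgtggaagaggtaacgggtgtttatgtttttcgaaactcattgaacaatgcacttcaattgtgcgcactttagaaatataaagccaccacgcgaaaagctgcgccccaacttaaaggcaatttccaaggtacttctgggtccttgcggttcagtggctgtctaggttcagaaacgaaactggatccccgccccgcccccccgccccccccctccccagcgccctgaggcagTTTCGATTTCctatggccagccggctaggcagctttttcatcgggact
Ifit1 (chr19:34640639-34640938, strand +): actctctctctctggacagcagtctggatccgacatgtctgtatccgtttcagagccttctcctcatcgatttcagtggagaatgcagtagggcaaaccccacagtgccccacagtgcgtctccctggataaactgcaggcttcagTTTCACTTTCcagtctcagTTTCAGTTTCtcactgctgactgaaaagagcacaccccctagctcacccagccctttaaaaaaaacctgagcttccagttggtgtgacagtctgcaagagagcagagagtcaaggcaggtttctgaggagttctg

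In Isg15, 3 overlapping matches form 1 run that begins 78 bases before the start. In Rsad2 the single match begins 120 bases upstream, in Ifit3 the 2 matches begin 156 and 122 bases upstream, and in Ifit1 they begin 104 and 85 bases upstream. The match of Ddx58 lies just after the start. RefSeq windows were matched for 28 of the 39 members, and 12 of these (42.9%) held the core, against 3.99% of 27025 genes with a window. The core of the gamma-activated site (TTC, any 3 bases, GAA) was held by 6 of the 28 members (21.4%) and by 9.55% of all genes; in Bst2 it overlaps a response element match. Of the detected members with a window, the 9 with a response element match had a median difference of 0.30 and the 9 without one likewise 0.30. A match describes letters in the window and is not evidence of binding. Windows for Usp18, Siglec1, Ifi27l2a, Dhx58, Mx1, Mx2, Zbp1, Parp9, Parp14, Rtp4 and Tor3a were not used here.

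ISG15 is joined to other proteins by a chain of enzymes and removed again by USP18, which also binds the interferon receptor and damps its signal. All 4 detected genes of this cycle were higher with EMF and AuNPs, with a median of 0.49, while 55.8% of all detected genes lay above 0. Usp18 had an intensity of 1059.9 with EMF and AuNPs, against 538 in control, a 2.35-fold difference at 5.02 robust SDs. Its second detected probe read 544 with EMF and AuNPs and 343 in control (0.99), so both probes of the deconjugating enzyme were higher. The remaining Usp18 probe, at 179 with EMF and AuNPs and 147 in control, was detected on neither array. Isg15 itself read 1031 with EMF and AuNPs and 728 in control, a 1.58-fold difference. Uba7, the activating enzyme, read 2892 with EMF and AuNPs and 2421 in control (0.30), and Ube2l6, the conjugating enzyme, read 243 with EMF and AuNPs and 226 in control (0.33). The difference of Ube2l6 lay within 1 robust SD, and those of the conjugating arm were thus smaller than those of Isg15 and Usp18. Herc6, an ISG15 ligase of mouse cells, was not analysed here.

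**Figure D2:**
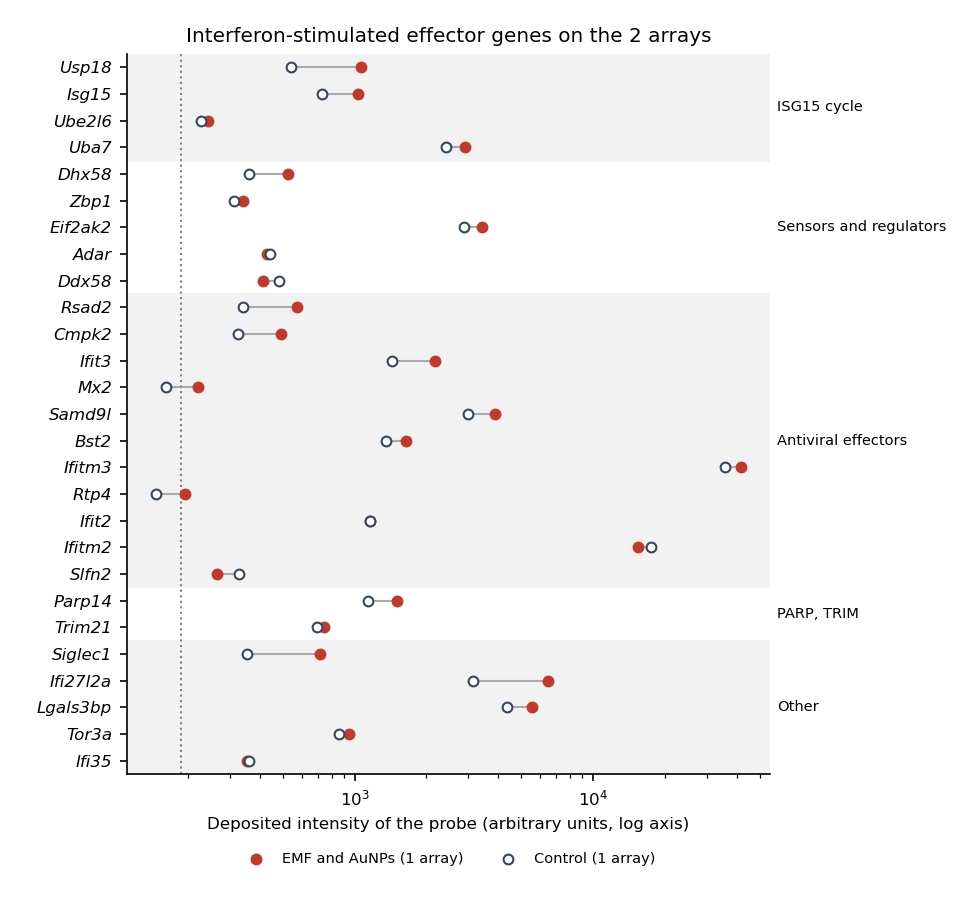
Deposited intensity (arbitrary units, log axis) of the probe that stands for each of the 27 detected members on the EMF and AuNPs array (filled) and the control array (open), grouped by role; the dotted line marks 187, where detection begins on the control array. Mx2 and Rtp4 lie left of the line in control, and the widest gaps are those of Siglec1, Ifi27l2a and Usp18; intensities are not normalized, and Ifi35, Adar and Ifit2 read slightly lower with EMF and AuNPs here although their normalized differences are above 0.

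Among sensors of viral nucleic acid and their regulators, 4 of 5 detected genes lay above 0 (55.8% of all detected genes). The median was 0.30, and 1 gene passed 1.5-fold (3.34% of all). That gene was Dhx58, which encodes LGP2, a helicase that tunes the other RNA sensors. It read 524 with EMF and AuNPs and 359 in control (0.83, 2.55 robust SDs). Ddx58, which encodes the RNA sensor RIG-I, went the other way at 414 with EMF and AuNPs and 483 in control (-0.17), within 1 robust SD. Ifih1, the gene of the related sensor MDA5, was not detected on either array (122 with EMF and AuNPs, 96.6 in control), so the 3 helicase genes did not share a measured direction. Eif2ak2, which encodes the kinase PKR that stops translation on double-stranded RNA, read 3425 with EMF and AuNPs and 2875 in control (0.30). Zbp1, a sensor of Z-form nucleic acid, read 340.05 with EMF and AuNPs and 313 in control (0.31), with its other probe undetected. Adar, which edits adenosine to inosine in double-stranded RNA, differed by 0.06 on its brightest probe, at 428 with EMF and AuNPs and 440.4 in control. Its other probes differed by 0.58 (274 with EMF and AuNPs, 227 in control) and 0.37 (236 with EMF and AuNPs, 216 in control). Trim25, a ubiquitin ligase for RIG-I, read 149.8 with EMF and AuNPs and 147 in control and was detected on neither.

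Effectors that act on viral entry, RNA or replication were the largest group, with 11 of 15 detected. Of these, 9 lay above 0, 4 passed 1.5-fold and 1 passed 2-fold (median 0.35). The shares over all detected genes were 55.8%, 3.34% and 0.52%. The 9 include Mx2 and Rtp4, whose direction the detection filter fixed. Rsad2, which encodes viperin, an enzyme that makes a chain-terminating nucleotide, read 572 with EMF and AuNPs and 338 in control (2.14-fold). Cmpk2, a nucleotide kinase gene next to Rsad2 on chromosome 12 with 0 protein-coding genes between them, read 491 with EMF and AuNPs and 324 in control (1.90-fold). These neighbours thus had similar differences, 1.10 and 0.93.

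The IFIT proteins bind foreign RNA ends and block their translation, and their genes lie in 1 cluster on chromosome 19. Ifit3 read 2173 with EMF and AuNPs and 1431 in control on its brightest probe (0.69). Its 2 dim probes differed the other way, by -0.31 (199 with EMF and AuNPs, 235 in control) and -0.89 (195 with EMF and AuNPs, 292 in control). The direction of Ifit3 therefore depends on the probe (-0.17 when the 3 are averaged), and mouse has a near-identical copy, Ifit3b, whose transcripts such probes may not tell apart. Ifit2 differed by 0.07 on its brightest probe (1155 with EMF and AuNPs, 1164 in control) and by -0.38 on the other (624 with EMF and AuNPs, 829 in control). Ifit1 was not detected on either array, at 100.2 with EMF and AuNPs and 86.8 in control. No gene of the cluster was thus higher on more than 1 detected probe.

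The Mx genes encode dynamin-like GTPases that trap viral nucleocapsids, and common laboratory strains carry defective alleles. Mx2 was detected with EMF and AuNPs alone (221, against 162 in control) and was at least 1.52-fold higher on the background-corrected scale, a bound against the lowest detected signal of the control array. Without background correction that bound was 0.31 (log2), so its size rests on the correction. Mx1 was not detected (126 with EMF and AuNPs, 129 in control). Rtp4, an interferon-induced chaperone of receptors, was also above the detection limit only with EMF and AuNPs (194, against 147 in control) and was at least 1.17-fold higher on the same scale (a log2 bound of 0.11 without the correction). Both genes with a bound entered through the array on which they were brighter, so their direction was fixed by the filter.

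The membrane proteins of the group gave small differences. Ifitm1, Ifitm2 and Ifitm3, whose products block fusion of viruses with the cell membrane, lie side by side on chromosome 7 and are close paralogs, so some cross-hybridization is possible. Ifitm3 read 41729 with EMF and AuNPs and 35604 in control (0.25), Ifitm2 read 15411 with EMF and AuNPs and 17544 in control (-0.18), and all 3 probes of Ifitm1 were undetected. The 2 detected paralogs thus differed in opposite directions, each by more than 1 robust SD of the bright range and less than 2. Bst2, which encodes tetherin, a protein that holds budding virions at the surface, read 1636 with EMF and AuNPs and 1358 in control (0.35). Samd9l, a translation inhibitor, read 3869.9 with EMF and AuNPs and 2975 in control (0.43, 2.34 robust SDs). The Schlafen gene Slfn2, which acts in leukocyte quiescence, had the lowest difference of all members at -0.32 (264 with EMF and AuNPs, 328 in control), within 1 robust SD, and Slfn5 was not detected.

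**Figure D3:**
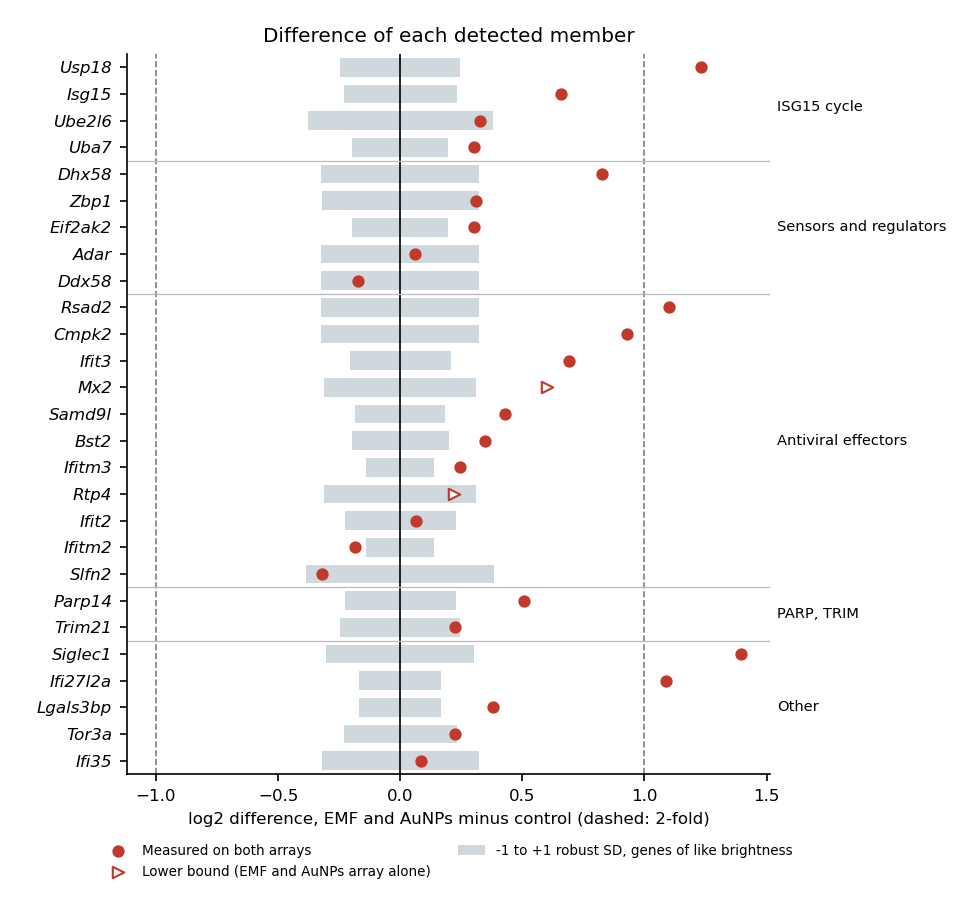
Log2 difference, EMF and AuNPs minus control, of each detected member by role (points; open triangles are lower bounds), with grey bars from -1 to +1 robust SD of genes of like brightness and dashed lines at 2-fold. Siglec1, Usp18, Rsad2 and Ifi27l2a lie past the dashed line, and Slfn2, Ifitm2 and Ddx58 lie below 0.

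Of the ADP-ribosylation, ubiquitin ligase and nuclear body genes, 2 were detected and neither passed 1.5-fold. Parp14, a mono-ADP-ribosyltransferase, read 1505 with EMF and AuNPs and 1136 in control (0.51, 2.24 robust SDs). Trim21, a ubiquitin ligase that binds antibody-coated virus in the cytosol, differed by 0.23 on its detected probe (747 with EMF and AuNPs, 692 in control). Its 2 undetected probes differed by 0.94 and -0.26, without a common direction. Parp9, whose product pairs with that of its neighbour Dtx3l, was not detected, nor was Sp100, a nuclear body gene, and Dtx3l was not analysed here.

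The remaining 5 detected members were all above 0 (55.8% of all detected genes), with a median of 0.38. Of them, 2 passed 2-fold (0.52% of all). Siglec1 had the highest difference of the 27, reading 718 with EMF and AuNPs and 354 in control (2.63-fold, 4.61 robust SDs), and it ranked 17 among all detected genes. It encodes sialoadhesin, a sialic acid receptor of macrophages that interferon induces. Ifi27l2a, a small hydrophobic interferon-induced protein, read 6447 with EMF and AuNPs and 3139.9 in control (2.13-fold). Its difference was the largest of the members against genes of like brightness, at 6.53 robust SDs. Lgals3bp, a secreted glycoprotein that binds galectins, read 5549.6 with EMF and AuNPs and 4362 in control (0.38, 2.28 robust SDs). Ifi35 differed by 0.09 (353.5 with EMF and AuNPs, 361 in control). Tor3a, of the torsin ATPase family, differed by 0.22 on its brightest probe (942 with EMF and AuNPs, 861 in control), by -0.09 on the next and by -0.65 on the dimmest, which was detected in control alone. Xaf1, whose product opposes an inhibitor of apoptosis, was not detected (119 with EMF and AuNPs, 107 in control), and Ifi44 was not analysed here.

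A second probe could check few of these values, since 20 of the 27 detected members have 1 probe and 5 have more than 1 detected probe. In Usp18 and Adar, every detected probe was higher with EMF and AuNPs. In Ifit3, Ifit2 and Tor3a the brightest probe was higher and every other detected probe lower. Of the 4 members past 2-fold, Usp18 alone has a second detected probe, so Siglec1, Rsad2 and Ifi27l2a rest on 1 probe each.

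**Figure D4:**
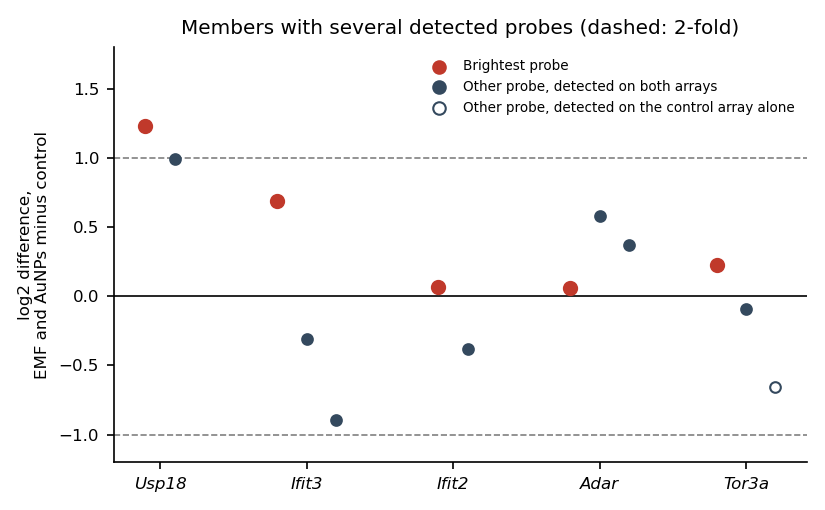
Log2 difference, EMF and AuNPs minus control, of every detected probe of the 5 members that have more than 1 (red, brightest probe; blue, other probes; open, detected on the control array alone; dashed lines, 2-fold). The 2 probes of Usp18 stand at 1.23 and 0.99, while those of Ifit3 spread from 0.69 to -0.89.

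The other genes of the pathway were described by lists, without a test. Over all detected genes, 55.8% lay above 0 and 3.34% were at least 1.5-fold higher. Of the 14 ligand and receptor genes with a probe, 4 were detected, with a median of -0.22, and none passed 1.5-fold. That median was -0.08 at a detection limit of 0.05 and 0.01 without a detection filter. Ifnb1, Ifna1, Ifna2, Ifna4, Ifna5, Ifnk, Ifne and Ifng, all of which encode interferons, were not detected on either array. Ifnar1 was not detected, and Ifnar2, the other chain of the receptor, differed by 0.20. Ifngr1 and Ifngr2, the receptor chains for interferon gamma, differed by -0.17 and -0.32, and Il10rb by -0.28. Janus kinases and feedback inhibitors had a median of 0.06 over 12 detected genes. Of these, 1 passed 1.5-fold, the cytokine signalling inhibitor Socs3, which read 2069.7 with EMF and AuNPs and 1362 in control (0.70). Jak1 differed by 0.12, Tyk2 by -0.38, the phosphatase gene Ptpn1 by 0.47 and the inhibitor gene Cish by -0.22.

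The STAT and IRF factors had a median of 0.11 over 11 detected genes (-0.01 with all detected probes averaged). Of these, 7 lay above 0 and 4 below, near the 55.8% of all detected genes above 0. Irf7, which amplifies interferon production, was 1 of 2 past 1.5-fold (3.34% of all detected genes) and the only one past 2-fold (0.52%). It read 326 with EMF and AuNPs and 219 in control (1.05). The other was Stat3, a transducer of interleukin 6 signals, at 9466 with EMF and AuNPs and 5703 in control (0.76). The deposited intensities of Irf7 lie less than 1.5-fold apart, so its passing of either limit rests on the processing. Stat2 and Irf9, partners in the interferon complex, differed by 0.26 and 0.28. Upstream sensors and adaptors had a median of 0.14 over 9 detected genes, with 6 above 0 and 3 below. Of them, 1 passed 1.5-fold, the adaptor gene Ticam1 at 0.74, followed by Myd88 (0.32), Tbk1 (0.30) and Traf6 (0.24). Ticam1 read 305 with EMF and AuNPs and 235 in control, less than 1.5-fold apart, so its size rests on the processing. Among the oligoadenylate synthetases, whose product activates an RNase, the 3 detected of 9 with a probe were all past 1.5-fold here: Oasl2 (1.19), Oas1g (0.87) and Oas2 (0.72). Their median of 0.87 was 0.66 without background correction and 0.72 with all detected probes averaged. Oasl2 and Oas1g have 2 detected probes each, of which the brightest is given. Oas1g read 519 with EMF and AuNPs and 350 in control, and Oas2 read 305 with EMF and AuNPs and 237 in control. Both pairs lie less than 1.5-fold apart, so the passing of that limit by Oas1g and Oas2 rests on the processing. The interferon-inducible GTPases had a median of 0.29 over 7 detected genes, with Gvin1 at 0.61, Gbp3 at 0.54, Igtp at 0.39 and Gbp7 at 0.29. Class I presentation genes had a median of 0.31 over 13, with 10 above 0 and 3 below. Highest was the immunoproteasome subunit gene Psmb8 at 0.92, with its partner Psmb9 at 0.45. Tap1 differed by 0.51, and Nlrc5, detected with EMF and AuNPs alone, by a bound of 0.51. The detection filter fixed the direction of Nlrc5. Psmb8 was dim, at 258 with EMF and AuNPs and 192 in control, so its size rests on the processing too.

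**Figure D5:**
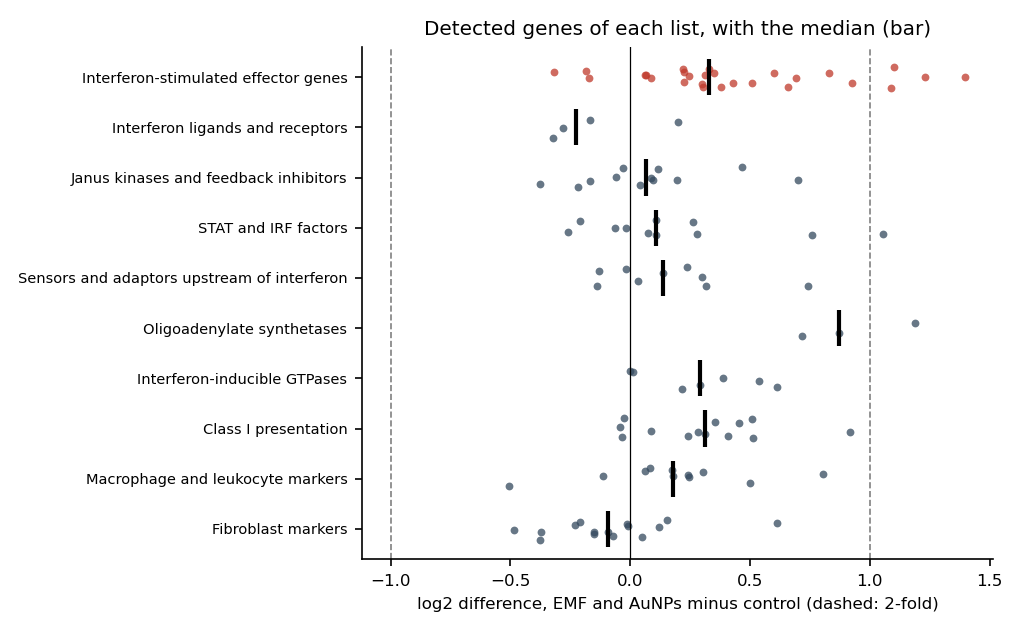
Log2 difference, EMF and AuNPs minus control, of each detected gene (points, spread vertically for legibility) with the median of each list (bar), for the interferon-stimulated effector genes (red), 7 lists of other pathway genes and 2 marker lists; dashed lines mark 2-fold. The effector genes have a median of 0.33, the oligoadenylate synthetases one of 0.87 from 3 genes, and the ligands and receptors one of -0.22 from 4.

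Markers were read for the cells labelled fibroblast. All 15 fibroblast markers with a probe were detected, among them Col1a1, Col1a2, Pdgfra and Vim (log2 differences of -0.15, -0.01, -0.09 and -0.37), with 4 above 0, 11 below and a median of -0.09. Ddr2, a collagen receptor gene, was the only one past 1.5-fold, at 0.61, while S100a4 differed by -0.49 and Postn by -0.38. The summed intensity of the 15 was 185323 with EMF and AuNPs and 201747 in control. Of 12 macrophage and leukocyte markers with a probe, 11 were also detected. The lysozyme gene Lyz2 read 42568 with EMF and AuNPs and 46631 in control (-0.11). Fcer1g read 38676 with EMF and AuNPs and 31786 in control. For comparison, Col1a1 read 52685 with EMF and AuNPs and 59628 in control. Some macrophage marker signals were thus strong on both arrays. The summed intensity of the 11 leukocyte markers was 159049.8 with EMF and AuNPs and 150131 in control. Of them, 9 lay above 0 and 2 below, with a median of 0.18, while 55.8% of all detected genes lay above 0. The 2 include Ptprc, whose direction the detection filter fixed. Cd52 differed by 0.80, Fcgr1 by 0.50, Fcer1g by 0.30 and Ptprc, detected in control alone, by a bound of -0.51, while Itgam was not detected. Siglec1 is a gene of such cells, and the part of leukocytes in the differences of the interferon-stimulated genes was not tested. In RNA from whole cultures, more cells of a type and more RNA per cell cannot be told apart.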

How the data were processed

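Per the labels' protocols, Trizol was used for total RNA and the Illumina TotalPrep kit for biotin labelling. The submitters' processing notes name GenomeStudio 2011.1. The authors deposited an intensity and a detection p-value for each of 25697 probes on each array, not normalized between arrays, with columns assigned by the sample descriptions. They also deposited log2 values, which equalled the quantile normalized log2 intensity without background correction (largest deviation 5e-07). No other upstream step is given in the sources used here, nor is the genome build of the array.

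Intensities were processed in R 4.3.3 by neqc (limma 3.58.1). It infers the background through the detection p-values, uses an offset of 16, quantile normalizes and returns log2 values. Folds of dim genes depend on these steps. Cmpk2, for example, differed by 0.93 here, by 0.69 without background correction and by 0.83 at an offset of 50. Whether folds of dim genes are too large or too small was not tested. Genes were named through the platform annotation (23978 probes with 1 gene, 0 with several, 1719 with none) and updated by Entrez number. The brightest probe detected on either array stands for a gene. For a gene detected on 1 array only, the bound sets its signal there against the lowest signal detected on the other array, or against its own signal there if that is higher. Differences were described by limits of 2-fold and 1.5-fold. Robust SDs (1.4826 times the median absolute deviation) came from 20 bins of brightness. The steps were tested on simulated arrays whose known changes lay only in clearly detected probes. Recovery of changes in dim genes and the bounds were not tested.

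The members, the role groups, the pathway and marker lists, and the rule for named genes (every member, and from each other list the 4 largest differences plus a fixed set of pathway, marker and reference genes) were chosen with earlier results of these data known. Undetected ligand and marker genes outside that rule are named without values. Alternatives covered background correction, offset, normalization, detection limit and the probe that stands for a gene.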

Additional observations from a re-analysis of the deposited data

How the results depend on the processing

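With the setting used here and 10 alternatives, 3 to 5 members were at least 2-fold higher (0.277% to 0.761% of all genes tested), 7 to 10 at least 1.5-fold higher (1.38% to 3.98%) and 0 at least 1.5-fold lower, and the median difference of the members ran from 0.29 to 0.35. Usp18, Ifi27l2a and Siglec1 passed 2-fold in all 11 settings and Rsad2 in 7, at 0.85 without background correction. The settings are not independent. The deposited log2 values equal the setting without background correction, and the detection limits leave most single values unchanged. Mx2 passed 1.5-fold in 4 of the 10 settings that scored it and differed by 1.04 with a detection limit of 0.05 or no filter, and Isg15 fell short of 1.5-fold (0.58) without background correction and in the deposited log2 values. When all detected probes were averaged, 3 members changed sign (Ifit3 to -0.17, Tor3a to -0.17 and Ifit2 to -0.16), which left 21 above 0, and the median of the STAT and IRF factors was -0.01. Of the 268 differences of single members under an alternative, 262 moved by no more than 1 robust SD. Without any filter, the medians were 0.26 for the oligoadenylate synthetases, 0.05 for the interferon-inducible GTPases and 0.01 for ligands and receptors (-0.08 at a detection limit of 0.05). No paired analysis was possible because each condition has 1 array and the labels carry no replicate numbers. Signal over background limits the 9 undetected members, for which no difference can be read.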

Other observations

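Markers of further cell types were mostly dim. Of 10 markers of plasmacytoid dendritic cells, B cells and T cells with a probe, 3 were detected: Bst2, which is also an interferon-stimulated effector gene, Tcf4 (0.24) and Cd3e (-0.24). Siglech, a marker of plasmacytoid dendritic cells, was not detected. Of 7 endothelial and epithelial markers, Krt8 (0.54) and Tek (-0.27) were detected, both at intensities under 250. As a reference, the brightest probe of Actb differed by 0.12, that of Gapdh by 0.03 and that of Hprt by 0.09, although other detected probes of Actb ran from -0.33 to 0.96, another bright probe of Gapdh differed by 0.33 and the other probes of Hprt by 0.17 and -0.07. Some reference probes thus differed by as much as the median of the interferon-stimulated genes.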
